A study of Mus musculus with 5 samples.

Results

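The genes described here are those of glycolysis and of the response to low oxygen, a list of 38 chosen by name, of which 35 had a value. They were read from 5 Affymetrix mouse expression arrays with RNA of sorted bone marrow stem and progenitor cells from C57BL/6 mice. The control group, 3 arrays, came from mice with rtTA, the transactivator that switches on inducible transgenes in the presence of doxycycline, and the other group, 2 arrays, from MSI2-inducible mice, which can be made to express the RNA-binding protein Musashi 2. Whether the MSI2-inducible mice also carry rtTA, which promoter drives the transgene, whether it was switched on and since when, and the age of the mice are not given in the labels. Nor do they state that each array is a different mouse, so p-values reflect only array-to-array spread, some of which may be technical. The sample labels call the cells Sca1-positive and Kit-positive, and the series text calls them Sca1-negative. Markers of such cells gave signal, since none of the 10 measured of 12 stem and progenitor markers lay below the median of all probe sets, and Kit stood between 8.80 and 9.66 on the log2 scale in all 5 arrays. Sca1 (Ly6a) was among the markers not analysed here.

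Glycolysis splits glucose into pyruvate and yields ATP without oxygen. Lactate dehydrogenase then turns pyruvate into lactate, while pyruvate dehydrogenase sends it to the mitochondria unless kinases of the Pdk family block that enzyme. When oxygen is short, the prolyl hydroxylases Egln1 and Egln3 no longer mark HIF alpha subunits for destruction, and HIF, a pair of an alpha subunit with Arnt, binds a short core motif and switches on glucose transport, glycolysis, lactate export, vessel growth and mitophagy genes. Blood stem cells live in a marrow of low oxygen, are known to rely on glycolysis while quiescent, and keep pyruvate out of the mitochondria through Hif1a and Pdk genes.

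Each value below is the log2 of a normalized probe set intensity, and a difference is MSI2-inducible minus control. A gene was read from its brightest probe set, and levels are compared between arrays, not between genes. Because the arrays hold RNA of a whole sorted population, fewer cells of a type and less RNA per cell cannot be told apart.

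A single form of the core motif that HIF binds, ACGTG, was searched, and it was common near the start sites of these genes. Both strands were read, overlapping matches counting as 1 site. The RefSeq windows of 300 bases ran from 250 bases before to 50 after a start (GRCm38.p6). Of the 38 genes, 34 had 48 windows, and 26 of these (54.2%) held the motif, against 22.9% of the 18109 windows of genes tested here and 19.6% of all 32851 windows. The median GC content was 62.2% in windows of the listed genes and 58.3% in those of genes tested, and its part in the share was not tested. A match is a string of letters and no evidence of binding. The 250 bases before the start follow for 5 genes, 5′ to 3′, with motif sites in capitals. Slc16a1, Pdk3 and Pkm are shown because they hold the motif and their arrays separated the groups, Adm because it had the largest difference of the list, and Ldha because it held the most sites in this stretch of the 5.
Adm, chr7:110627407-110627656, plus strand: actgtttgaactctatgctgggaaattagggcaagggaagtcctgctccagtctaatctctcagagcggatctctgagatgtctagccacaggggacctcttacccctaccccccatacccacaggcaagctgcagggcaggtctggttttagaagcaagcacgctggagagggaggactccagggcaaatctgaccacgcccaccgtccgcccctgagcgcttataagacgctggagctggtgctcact
Ldha, chr7:46845554-46845803, plus strand: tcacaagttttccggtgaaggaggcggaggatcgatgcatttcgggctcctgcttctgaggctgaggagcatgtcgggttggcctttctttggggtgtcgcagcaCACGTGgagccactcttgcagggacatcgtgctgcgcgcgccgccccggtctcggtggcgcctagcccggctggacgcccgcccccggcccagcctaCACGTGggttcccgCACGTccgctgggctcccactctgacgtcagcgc
Slc16a1, chr3:104638414-104638663, plus strand: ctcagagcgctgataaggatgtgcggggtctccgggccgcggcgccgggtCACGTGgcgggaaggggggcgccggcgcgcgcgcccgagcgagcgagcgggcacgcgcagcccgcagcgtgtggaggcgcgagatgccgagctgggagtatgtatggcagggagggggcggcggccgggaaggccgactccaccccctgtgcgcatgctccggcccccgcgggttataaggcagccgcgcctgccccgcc
Pdk3, chrX:93832151-93832400, minus strand: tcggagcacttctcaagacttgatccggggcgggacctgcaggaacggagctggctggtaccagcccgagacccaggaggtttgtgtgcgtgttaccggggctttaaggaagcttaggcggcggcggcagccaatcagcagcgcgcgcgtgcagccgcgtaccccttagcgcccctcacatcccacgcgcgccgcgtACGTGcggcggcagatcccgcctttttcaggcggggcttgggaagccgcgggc
Pkm, chr9:59656977-59657226, plus strand: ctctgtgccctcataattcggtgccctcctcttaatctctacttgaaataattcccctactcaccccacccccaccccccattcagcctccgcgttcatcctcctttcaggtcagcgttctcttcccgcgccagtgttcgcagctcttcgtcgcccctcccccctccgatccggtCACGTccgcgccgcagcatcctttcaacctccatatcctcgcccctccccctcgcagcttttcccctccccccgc

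In Ldha the sites begin 145, 48 and 34 bases before the start, in Slc16a1 200, in Pdk3 53 and in Pkm 75 bases before it. The stretch of Adm holds no ACGTG on either strand, but other forms of the core motif were not searched. The lack of ACGTG says nothing about HIF at that gene. The window shown for Pkm is the second of 2 and that for Ldha the first of 2, and the other window of each held 0 sites.

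**Figure D1:**
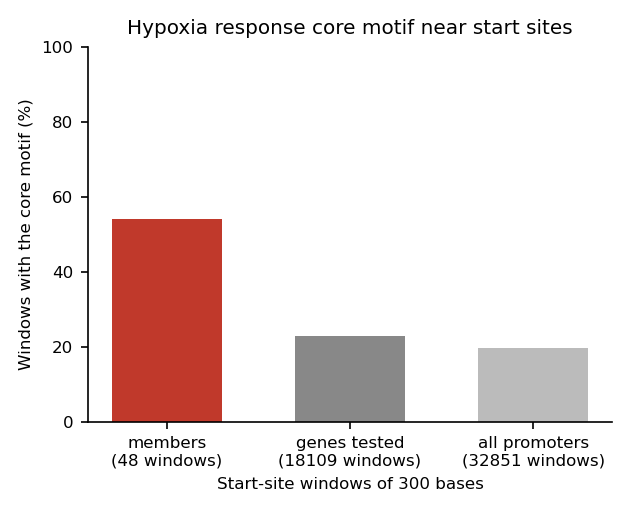
Percentage of RefSeq start-site windows of 300 bases that hold ACGTG (vertical axis, 0 to 100%) for the listed genes, for all genes tested and for all windows. ACGTG is the only form of the hypoxia response core motif that was searched. The bar of the listed genes stands at 54.2%, those of the other sets at 22.9% and 19.6%.

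Across the list, the groups were close. No gene of the list passed limma's test after adjustment over all genes, with 0 higher (0.0165% of all genes passed as higher) and 0 lower (0.00550% passed as lower), and 4 had an unadjusted limma p under 0.05 (11.4%, against 5.64% of all genes). The median difference was 0.00 with 18 positive and 17 negative, equal at this precision to the median of all 18193 genes (0.00). Differences of 30 of the 35 genes were smaller than 0.5 in either direction (85.7%, against 86.6% of all genes). Both MSI2-inducible arrays lay above every control array for 3 genes, Adm, Arnt and Slc16a1 (8.57%, against 9.27% of all genes), and below every control array for 5, Pfkl, Pfkp, Pfkfb4, Pkm and Pdk3 (14.3%, against 9.39%). These shares are near those of all genes.

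**Figure D2:**
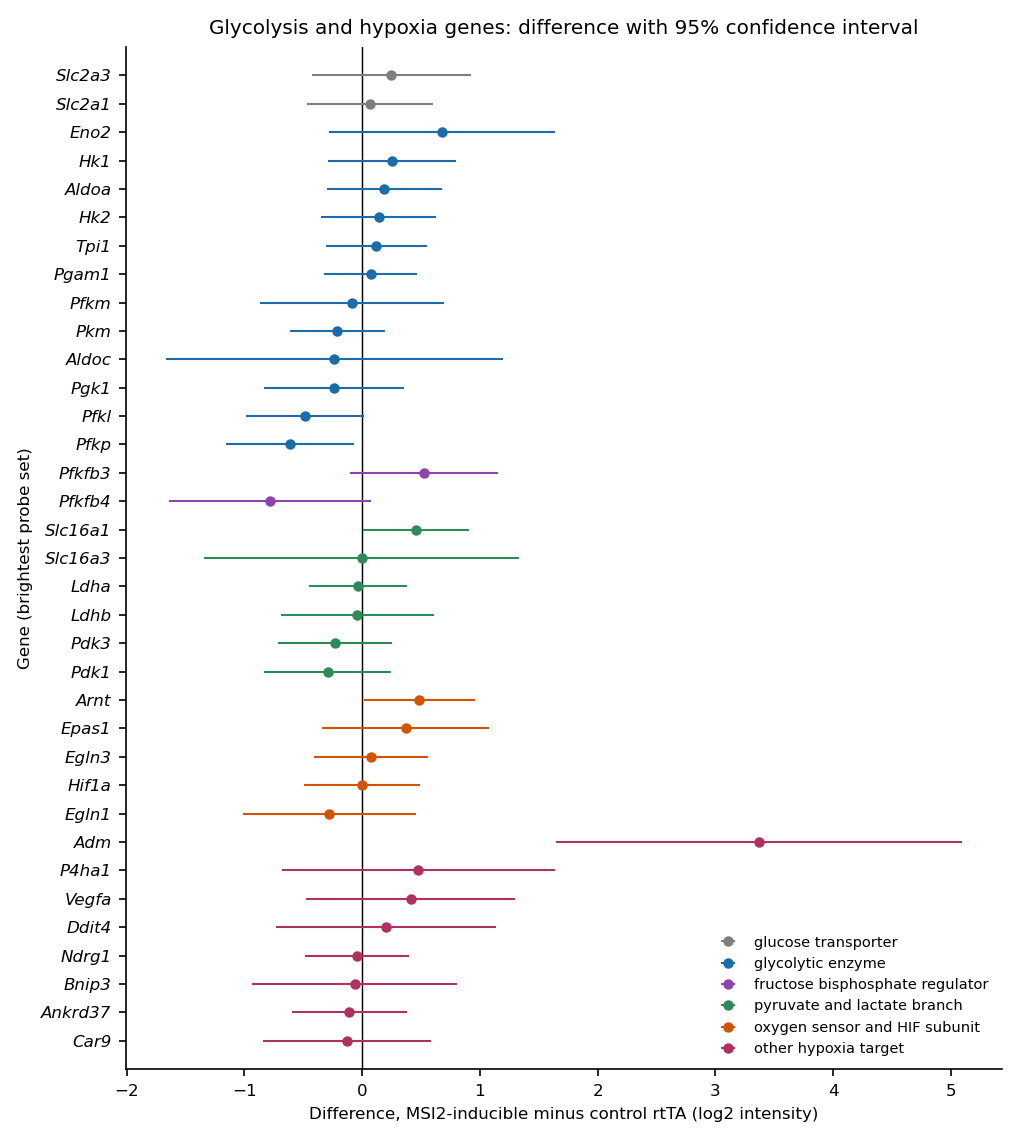
Difference between MSI2-inducible and control rtTA arrays (horizontal axis, log2 intensity) for each of the 35 genes, as points with 95% confidence intervals from limma, coloured and ordered by role. Most points lie within 0.5 of 0, and Adm stands alone at 3.37.

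In their brightest probe sets, glucose uptake genes overlapped between the groups. Slc2a1 encodes GLUT1, the widespread glucose transporter, and stood at 9.75, 10.30 and 10.05 in the control arrays and at 10.02 and 10.17 in the MSI2-inducible arrays, in the order of replicate number used throughout. Both MSI2-inducible values lay inside the control range, and the difference was 0.07 (SE 0.22, limma adjusted p 0.984). In the dimmest Slc2a1 probe set both MSI2-inducible arrays (9.74 and 9.61) were above the control arrays (9.45 to 9.55). Slc2a3, the high-affinity transporter GLUT3, differed by 0.25 (SE 0.28), and its 4 probe sets by -0.38 to 0.25.

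Among enzymes of the glycolytic chain, 12 of 14 listed were measured, 6 with a positive and 6 with a negative difference. Hexokinases, which trap glucose in the cell, overlapped between the groups. Hk2, the inducible hexokinase, stood at 8.74, 8.91 and 8.48 in control arrays and at 8.92 and 8.79 in MSI2-inducible arrays, a difference of 0.14 (SE 0.20), and Hk1 differed by 0.25 (SE 0.22). Further down the chain, Aldoa, the main aldolase, differed by 0.19, its relative Aldoc by -0.24, Tpi1 (triose phosphate isomerase) by 0.12, Pgk1 (phosphoglycerate kinase) by -0.24 and Pgam1 (phosphoglycerate mutase) by 0.07. All 5 overlapped between the groups. Eno2, a neuronal enolase, had a difference of 0.68 (SE 0.39), with control arrays from 4.76 to 5.76 and MSI2-inducible arrays at 5.73 and 6.45.

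Phosphofructokinase, the committed step of glycolysis, has 3 subunit genes, of which 2 had lower values in both MSI2-inducible arrays than in every control array. Its platelet-type subunit Pfkp stood at 9.38, 9.63 and 9.09 in control arrays and at 8.64 and 8.87 in MSI2-inducible arrays. Every control array was higher than both others, with a difference of -0.61 (SE 0.22, 95% CI -1.15 to -0.07, limma adjusted p 0.870). The liver-type subunit Pfkl gave 9.47, 9.38 and 9.14 against 8.67 and 9.02. Its groups were also apart, with a difference of -0.49 (SE 0.21, 95% CI -0.99 to 0.02). Pfkm, the muscle-type subunit, overlapped, at 8.91, 9.40 and 8.43 against 8.63 and 9.02 (difference -0.09, SE 0.32). The probe sets of Pfkl all had a negative difference (-0.59, -0.49 and -0.18), and the 2 brighter were apart, whereas the other Pfkp probe sets differed by 0.17 and 0.29, and the mean of the 3 by -0.05. Pkm, pyruvate kinase of the last step, stood at 11.82, 11.95 and 11.76 in control arrays and at 11.65 and 11.62 in the others, apart but with a difference of only -0.21 (SE 0.17, limma adjusted p 0.927).

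The activator of phosphofructokinase is made and removed by the Pfkfb enzymes. Pfkfb3, the kinase-rich form that favours glycolysis, stood at 8.22, 8.09 and 8.43 in control arrays and at 9.12 and 8.43 in MSI2-inducible arrays. MSI2-inducible replicate 2 equalled the highest control array, and the difference was 0.52 (SE 0.26, limma adjusted p 0.911). A second, dimmer probe set of the gene differed by -0.01. Pfkfb4, the other hypoxia-induced form, stood at 6.24, 6.96 and 6.43 against 6.21 and 5.30, a difference of -0.79 (SE 0.35, limma adjusted p 0.907). Its groups were apart only narrowly, at control replicate 1 and MSI2-inducible replicate 1, and without MSI2-inducible replicate 2 the difference was -0.33.

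**Figure D3:**
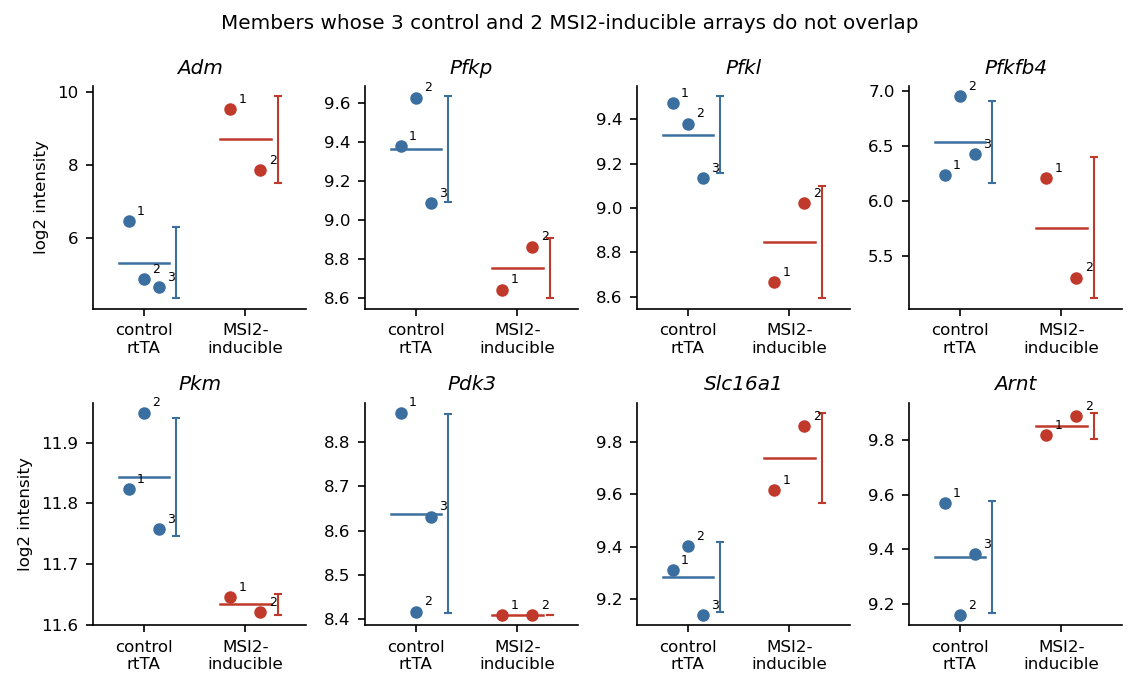
Log2 intensity (vertical axes, each with its own range that does not start at 0) of the 8 genes whose 3 control arrays (blue) and 2 MSI2-inducible arrays (red) do not overlap. Numbers give the replicate, short lines the mean and bars the SD; Adm spans 4.65 to 9.53, the others under 2 log2 units.

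At the pyruvate branch, 5 of 6 genes had a negative difference, against 9031 of all 18193 genes. All 6 differences were smaller than 0.5 in size, and those of Ldha, Ldhb and Slc16a3 were only -0.04, -0.04 and -0.003. Ldha, the lactate dehydrogenase subunit of glycolytic cells, gave 12.18, 12.10 and 11.94 in control arrays and 12.04 and 12.04 in MSI2-inducible arrays. The groups overlapped, with a difference of -0.04 (SE 0.17, 95% CI -0.45 to 0.38), and Ldhb, the subunit of oxidative tissues, also differed by -0.04. Pdk1, a kinase that shuts pyruvate dehydrogenase, stood at 10.12, 9.92 and 10.43 against 9.73 and 9.999, an overlap with a difference of -0.29 (SE 0.22, limma adjusted p 0.925). All 4 Pdk1 probe sets had a negative difference, from -1.07 to -0.19, and in the dimmest the control arrays (7.20, 7.42 and 6.87) were apart from the MSI2-inducible arrays (5.87 and 6.31; limma adjusted p over all probe sets 0.615). Pdk3, a second such kinase, gave 8.87, 8.42 and 8.63 against 8.41 in both MSI2-inducible arrays, just below control replicate 2 (difference -0.23, SE 0.20, limma adjusted p 0.931).

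Lactate leaves or enters cells through the monocarboxylate transporters. Slc16a1 (MCT1) stood at 9.31, 9.40 and 9.14 in control arrays and at 9.62 and 9.86 in MSI2-inducible arrays, above all controls, a difference of 0.46 (SE 0.18, 95% CI 0.0050 to 0.91, limma adjusted p 0.883). Its second, dimmer probe set had a difference of 0.61 with an overlap. Slc16a3 (MCT4), the HIF-induced lactate exporter, had a difference of -0.00 that hides a split, since MSI2-inducible replicate 1 (7.53) lay above and replicate 2 (5.60) below the control arrays (6.36 to 6.74).

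Oxygen sensors and HIF subunits included 1 gene with separate groups. Arnt, the shared partner of HIF alpha subunits, stood at 9.57, 9.16 and 9.38 in control arrays and at 9.82 and 9.89 in MSI2-inducible arrays, a difference of 0.48 (SE 0.19, 95% CI 0.01 to 0.96, limma adjusted p 0.883). Its second-brightest probe set had a difference of 0.50 and was apart too, and the other 3 overlapped, with differences of 0.34, -0.45 and 0.01. Hif1a, the widespread alpha subunit, gave 8.65, 8.74 and 9.07 against 8.76 and 8.88. That is a difference of 0.00 (SE 0.20, 95% CI -0.49 to 0.49), although its second probe set stood higher in both MSI2-inducible arrays by 0.20. HIF is known to be set mainly by protein stability, which arrays do not read. Epas1, the alpha subunit HIF-2 alpha, stood at 5.81, 6.37 and 5.48 against 6.18 and 6.33, overlapping with a difference of 0.37 (SE 0.29), while its dimmer probe set had a difference of -0.41 with the groups apart. Egln3, a sensor that HIF itself induces, stood at 7.98, 8.28 and 8.12 against 8.04 and 8.37 (difference 0.07, SE 0.20). Egln1, the main sensor, gave 9.41, 9.33 and 9.47 against 9.60 and 8.65, so the MSI2-inducible arrays lay on either side of the controls.

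Adm had the largest difference of the list. It encodes adrenomedullin, a secreted vasodilator peptide that HIF induces. Its brighter probe set stood at 6.45, 4.88 and 4.65 in control arrays and at 9.53 and 7.86 in MSI2-inducible arrays. Both MSI2-inducible arrays were above all controls, with a difference of 3.37 (SE 0.70, 95% CI 1.64 to 5.10), or 10.3-fold, and a limma adjusted p of 0.563. The control mean of 5.32 was below the probe set median of 5.57, so the control level is dim and the fold imprecise. With an array left out, the difference was 2.53 without MSI2-inducible replicate 1 and 4.21 without replicate 2, and no setting brought the adjusted p under 0.160. The only other Adm probe set did not show it. That one stood at 4.02, 4.04 and 3.93 in control arrays and at 3.85 and 3.77 in MSI2-inducible arrays, a difference of -0.18 (SE 0.17) at low signal, with the groups apart in the opposite direction. The brighter probe set has the suffix x_at, which the manufacturer gives to sets with probes that can match other transcripts. Which of the probe sets reads Adm was not tested.

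Genes whose brightest probe set followed Adm most closely over the 5 arrays, among 10565 with a mean above the median of all probe sets, were Dleu7 (r = 0.999), Llgl2 (r = 0.998), Ifit3 (r = 0.998), Ndufaf3 (r = 0.996) and Tle2 (r = 0.994). With 5 arrays such values are a description. None is a gene of the list, and their differences were 0.54 to 1.01.

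In their brightest probe sets, the remaining hypoxia targets overlapped between the groups. Vegfa, the vessel growth factor, stood at 6.95, 7.27 and 7.06 in control arrays and at 8.10 and 6.91 in MSI2-inducible arrays, 1 above and 1 below all controls, with a difference of 0.41 (SE 0.36, limma adjusted p 0.933). Bnip3, a mitophagy receptor, gave 8.53, 7.57 and 8.67 against 8.23 and 8.16 (difference -0.06, SE 0.35). Ddit4 (REDD1), an inhibitor of mTOR, gave 10.30, 11.25 and 11.34 against 10.86 and 11.47 (difference 0.20, SE 0.38). In both, 1 control array stood lower than all other arrays, replicate 2 for Bnip3 and replicate 1 for Ddit4. Ndrg1, a stress-responsive gene, differed by -0.04, Ankrd37, a direct HIF target, by -0.11, and Car9, the carbonic anhydrase used as a hypoxia marker, by -0.13. The 5 Ndrg1 probe sets ranged from -0.35 to 0.30. In the lowest of them the groups were apart (8.98 and 9.15 in MSI2-inducible arrays against 9.24 to 9.67 in control arrays). P4ha1, a collagen prolyl hydroxylase, had a difference of 0.48 (SE 0.47), and its second probe set one of -0.36.

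Several genes of the list separated the MSI2-inducible arrays from each other. A gap of 0.9 or more between them, a limit chosen after the values were seen, held for 7 of the 35 genes (20.0%, against 10.4% of all genes), and in the brightest probe set of all 7 replicate 1 was higher, whereas among all genes with such a gap replicate 1 was higher in 51.6%. These were Slc16a3 (gap 1.93), Adm (1.67), P4ha1 (9.65 against 8.14, gap 1.52), Vegfa (1.18), Egln1 (0.94), Car9 (7.28 against 6.36, gap 0.92) and Pfkfb4 (0.91). The order was not the same in every probe set. The second probe set of Egln1 stood at 8.47, 8.43 and 8.32 in control arrays and at 8.19 and 8.85 in MSI2-inducible arrays, so replicate 2 was the higher there. The second probe set of P4ha1 likewise gave 6.35 in replicate 1 and 6.98 in replicate 2, against 6.77 to 7.15 in control arrays. Among the 28 genes with a smaller gap, replicate 2 was the higher in 19, replicate 1 in 8, and 1, Pdk3, was equal. Further genes of the same pathways, not on the list, with a gap of 0.9 or more went both ways. Replicate 1 minus replicate 2 was 1.86 in Ldhc, 0.996 in Cited2, 0.98 in Pklr and 0.92 in Pdk2, but -1.37 in Rora and -1.09 in Bpgm. Without MSI2-inducible replicate 1 the differences of Vegfa and P4ha1 were -0.18 and -0.28, and without replicate 2 they were 1.01 and 1.24.

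**Figure D4:**
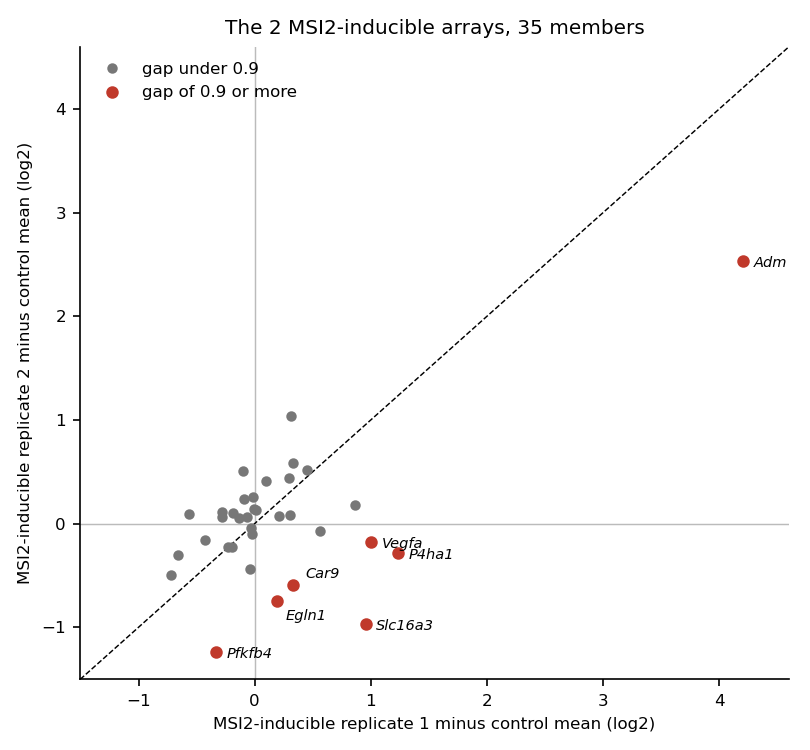
Each point is 1 of the 35 genes, placed by its value in MSI2-inducible replicate 1 (horizontal axis) and replicate 2 (vertical axis) minus the control mean, in log2 units; the dashed line marks equal values. The 7 genes with a gap of 0.9 or more (red) all lie under the line.

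Marker genes of other cell types also differed between the MSI2-inducible arrays. Stem and progenitor markers (10 of 12 measured) had a summed linear intensity of 8062 in MSI2-inducible replicate 1, below the control arrays (10433 to 10935), and of 11714 in replicate 2, above them. For 2 of the 10, Slamf1 and Mecom, both MSI2-inducible arrays were below all controls (20%, against 9.39% of all genes). Their differences were -1.27 and -0.58 (limma adjusted p 0.883 and 0.870). All 9 measured of 10 neutrophil markers were highest in MSI2-inducible replicate 1, and their summed linear intensity was 62444 there, 11743 in MSI2-inducible replicate 2 and 14228 to 26635 in control arrays. Of 7 measured of 10 erythroid markers, 6 were highest in that array, with a sum of 2787 against 680 in replicate 2 and 483 to 754 in control arrays. The other, Gata1, was below all controls in both MSI2-inducible arrays (6.91 and 6.85 against 7.09 to 7.61, limma adjusted p 0.886). Epor was above all controls in both (8.30 and 7.89 against 6.57 to 7.24, limma adjusted p 0.616). The alpha globin Hba-a1 was dim, at 4.05 to 4.66, and the means of the neutrophil genes Mmp8, Mmp9 and Cxcr2 were also below the probe set median. Macrophage and monocyte markers (8 of 8 measured) summed to 2272 and 1131 in the MSI2-inducible arrays against 1200 to 1540 in controls, B cell markers (5 of 6) to 963 and 677 against 266 to 552, T and NK cell markers (6 of 6) to 701 and 619 against 604 to 1084, and eosinophil, basophil and mast cell markers (6 of 6) to 759 and 354 against 239 to 1324. Of these markers, Cd3e, Cd3g, Cd4, Cd8a and Klrd1, Cd79a, Ms4a1 and Pax5, Adgre1, Mrc1 and C1qa, and Il5ra had means under the median. Nkg7, Cd79b and Vpreb1, Csf1r, Cd68, C1qb, Vcam1 and Ccr2, and the other eosinophil, basophil and mast cell markers lay above it. Immediate early and heat shock genes, which respond to handling and stress, summed to 50443 and 44482 against 25284 to 35479. Both MSI2-inducible arrays were above all controls in 13 of these 16 (81.25%, against 9.27% of all genes). The part of these cells and responses in the differences of Adm, Vegfa and the other hypoxia genes was not tested. The 3′ minus 5′ signal of Gapdh, a measure of RNA integrity, was 2.22 in both MSI2-inducible arrays, inside the control range of 2.14 to 2.60 (exact permutation p = 0.4, two-sided, where 0.1 is the smallest possible). That of beta-actin was -0.06 and -0.07, inside the control range of -0.15 to 0.01 (exact permutation p = 0.8). Why Gapdh and beta-actin differed in every array was not tested.

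Probe sets of a gene often differed in direction. Of 22 genes with several, 9 had differences of a single sign and 13 did not. Single-sign genes included Slc2a1, Aldoa, Tpi1, Pfkl, Pdk1, Slc16a1 and Vegfa. The widest spreads were in Adm (-0.18 to 3.37), Hif1a (-0.27 to 1.03) and Arnt (-0.45 to 0.50). Hif1a was widest after Adm because its dimmest probe set gave 5.12, 3.48 and 6.53 in control arrays and 6.05 and 6.09 in the others, an overlap.

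**Figure D5:**
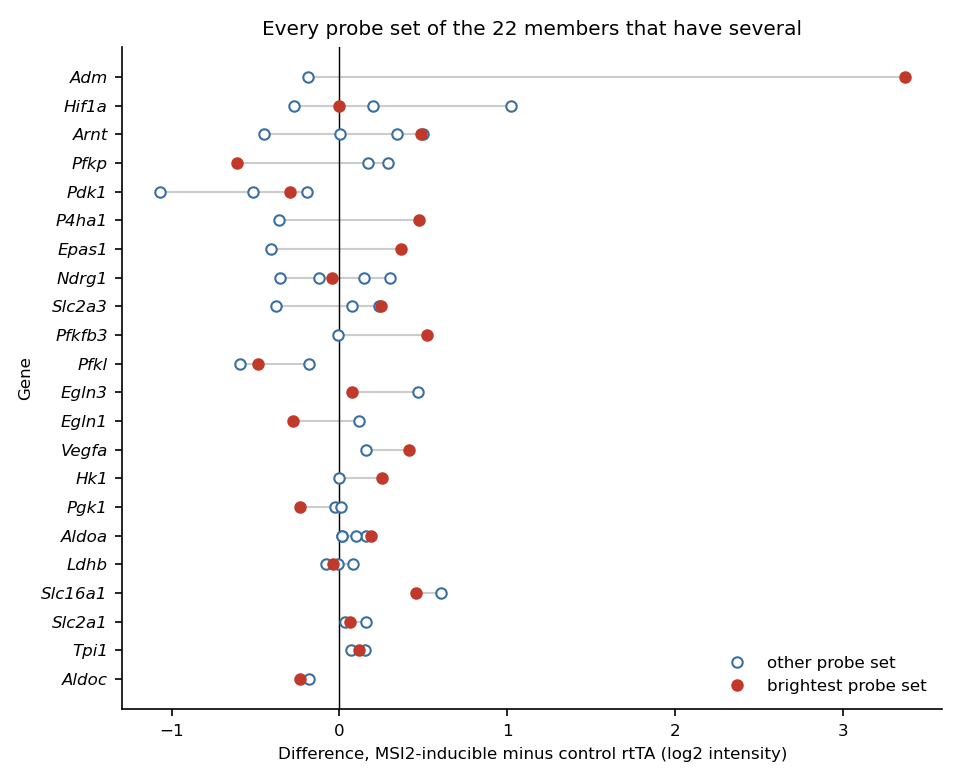
Difference between MSI2-inducible and control arrays (horizontal axis, log2 intensity) of every probe set of the 22 genes that have several; filled red points are the brightest probe set of a gene and open blue points the others. Points of 13 genes fall on both sides of 0, Adm with -0.18 and 3.37 the farthest apart.

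Other genes of the same pathways were taken from lists chosen by function. Of 34 further genes of glycolysis and its branches, 28 were measured, and limma called 0, with 1 higher and 1 lower at an unadjusted p under 0.05. Both directions together made 7.14%, against 5.64% of all genes. The median difference was 0.05, with 18 positive and 10 negative. Both MSI2-inducible arrays were above all controls for 4 of the 28 (14.3%, against 9.27% of all genes) and below for 3 (10.7%, against 9.39%). Pdk4, the kinase of pyruvate dehydrogenase tied to fasting, gave 4.08, 5.29 and 4.59 in control arrays and 3.68 and 3.68 in MSI2-inducible arrays, apart at a signal under the median of all probe sets (difference -0.97, SE 0.36, limma adjusted p 0.873). Dlat, a core subunit of pyruvate dehydrogenase, stood at 8.82, 8.78 and 8.83 against 9.11 and 9.41, apart in the other direction (difference 0.45, SE 0.18, limma adjusted p 0.883). Pdhb, another of its subunits, had a difference of 0.38 with its groups apart (limma adjusted p 0.911). A further subunit, Pdha1, went the other way, with a difference of -0.20 and overlapping groups (limma adjusted p 0.938). Tigar, which removes the activator of phosphofructokinase, had a difference of 0.54 (SE 0.33), its MSI2-inducible arrays at 6.71 and 6.73 and its controls from 5.58 to 6.62.

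Of 35 further hypoxia and HIF genes, 33 were measured, and limma again called 0, with 0 higher and 1 lower at an unadjusted p under 0.05. That is 3.03%, against 5.64% of all genes. The median difference was -0.07, with 13 positive and 20 negative. The 1 lower was Hmox1, haem oxygenase, which HIF and oxidative stress induce. It gave 7.13, 7.28 and 6.51 in control arrays and 5.57 and 5.63 in MSI2-inducible arrays, apart with a difference of -1.38 (SE 0.27, limma adjusted p 0.495). Hif1an, which blocks HIF activity by hydroxylation, differed by -0.28, Vhl, the ligase that removes HIF alpha, by -0.15, and Cited2, a HIF inhibitor needed by stem cells, by -0.01. Among further HIF targets, the transcriptional repressor Bhlhe40 had a difference of 0.42, the histone demethylase Kdm3a one of -0.39, the Myc antagonist Mxd1 one of 0.35 and the mitochondrial protein Higd1a one of 0.45. None of these 4 passed limma's test (adjusted p 0.912 to 0.918). Gapdh, the remaining enzyme of the chain, was not analysed as a gene here.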

How the data were processed

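The authors deposited linear probe set intensities, normalized between arrays. Per the submitters' processing notes, RMA from affy under R 2.11.0 was used; how its log values became linear is not stated there. Array medians lay between 46.4 and 48.3. The log2 of each intensity was used with no pseudocount or further normalization. Probe sets with exactly 1 symbol (34958 of 45101) were named from the platform annotation, updated by Entrez ID (GRCm38.p6), without control probe sets. The brightest by mean over the 5 arrays stood for a gene, giving 18193 genes.

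The test was limma (3.58.1, under R 4.3.3, two-sided, Benjamini-Hochberg over all genes, threshold 0.05). It was tried first on simulated data, where recovery was required only of differences larger than any of the list. How often it finds smaller ones is not reported here. The listed genes, and the lists beside them, were chosen with earlier results of these data known. Array values are given for 12 genes set by function, for genes with separate groups and a difference of at least 0.5, and for those with an unadjusted p under 0.05. Pfkm, Pfkl, Pkm, Pdk3, Egln1, Slc16a3, Eno2, Car9, P4ha1 and single probe sets were added after their values were seen, as were the promoters of Adm and Ldha. The number of arrays limits precision. Gpi1 and Eno1 were not analysed here.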

Additional observations from a re-analysis of the deposited data

How the results depend on the processing

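No gene of the list, and none of the other pathway genes, passed limma's test in any setting run: mean of probe sets, every probe set on its own, no x_at probe sets, low values left out, quantile normalization once more, trend and robust on, array weights, replicate block, each array left out, and an adjusted p of 0.10 (0 in each; lowest adjusted p of a listed gene 0.160, with the replicate block; a lone remaining array took its spread from the controls). The median difference of the list (0.00) was 0.0680 with array weights, 0.0642 with the replicate block and -0.0173 to 0.0907 with an array left out, and less than the spread of control arrays away otherwise. Replicate numbers are shared, but 2 pairs exist and no label pairs them (same-numbered arrays correlated at 0.134 and 0.0990 after removing group means). Over 454 combinations of gene and setting, the direction turned in 39, of which 35 concern differences within their SE. The other 4 were Adm without x_at probe sets (-0.18), Epas1 with the mean of probe sets (-0.0188), and Vegfa (left-out arrays -0.18 to 1.01) and P4ha1 (-0.28 to 1.24) without MSI2-inducible replicate 1. The number of listed genes with an unadjusted limma p under 0.05 was 4 (11.4%, against 5.64% of all genes). It was 2 to 5 in the other settings with 1 value per gene and both MSI2-inducible arrays. That is 5.71% to 14.3%, against 3.99% to 6.57% of all genes. Adm was among them in all of these but the one without x_at probe sets. Beyond the arrays and probe sets involved, the cause was not tested. Low signal limits Adm, Eno2, Epas1 and Pdk4.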

Other observations

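Bnip3l, the mitophagy receptor of red cell maturation, was left out of the comparison because its 3 probe sets also name a pseudogene, Bnip3l-ps. They stood between 8.85 and 10.11 in control arrays and between 9.12 and 10.23 in MSI2-inducible arrays, with differences of -0.03, 0.13 and 0.06 and overlapping groups.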
